A study of Mus musculus with 6 samples.

Results

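Heat shock chaperones are the proteins that keep other proteins folded, and the 10 genes described here were taken by symbol from the 27179 genes of the count table: the Hsp70 genes Hspa1a, Hspa1b and Hspa8, the Hsp110 gene Hsph1, the Hsp90 genes Hsp90aa1 and Hsp90ab1, the co-chaperones Dnajb1 and Bag3, the small heat shock protein gene Hspb1 and the mitochondrial co-chaperonin gene Hspe1. All 10 were found, and all 10 passed the filter on low counts. Expression was measured by RNA-seq in cancer-associated fibroblasts (CAFs) of 3 raGFP-Wnt1 mammary tumors from mice. These mice carry an MMTV-Wnt1 transgene, expressed from a viral promoter that is active in the mammary epithelium, and 1 Pdgfra H2B-GFP knock-in allele, which labels nuclei of Pdgfra-expressing cells green. GFP+ cells of each tumor were sorted into a CD34- and a CD34+ fraction, so that all libraries share the genotype and the tumor type and differ in the surface marker. There were 3 libraries per fraction, named here by fraction and tumor, and no treatment was given; animal age is not in the labels used here.

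Cytosolic Hsp70 proteins bind unfolded stretches of client proteins in cycles of ATP hydrolysis, which J-domain proteins such as Dnajb1 start and nucleotide exchange factors such as Hsph1 and Bag3 end. Hsp90 takes over many of these clients at a late step of folding, small heat shock proteins hold unfolded proteins without ATP, and Hspe1 closes the lid of the Hspd1 chaperonin barrel in mitochondria. Hspa8 and Hsp90ab1 are known as the constitutive forms of their families, whereas Hspa1a and Hspa1b are strongly induced by heat shock factor 1 (Hsf1), which binds arrays of GAA units in alternating orientation, the heat shock element.

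Hspa1a and Hspa1b carry the main difference of the group. They are intronless copies on the minus strand of chromosome 17 in GRCm38, Hspa1a at chr17:34969359-34972156 and Hspa1b at chr17:34956429-34959238, with 10120 bases between them. The 250 bases upstream of both starts are shown first because they differ at only 3 positions, and those of Hspb1, which also had higher values in the CD34- fraction, follow (RefSeq, GRCm38.p6, 5′ to 3′ in the direction of transcription; capitals mark GAANNTTC, a pair of heat shock units).
Hspa1a, chr17:34972157-34972406, minus strand: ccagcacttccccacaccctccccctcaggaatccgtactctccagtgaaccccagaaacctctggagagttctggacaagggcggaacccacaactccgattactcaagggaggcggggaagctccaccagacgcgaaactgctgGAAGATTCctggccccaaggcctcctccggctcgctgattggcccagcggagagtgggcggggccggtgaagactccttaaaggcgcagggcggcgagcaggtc
Hspa1b, chr17:34959239-34959488, minus strand: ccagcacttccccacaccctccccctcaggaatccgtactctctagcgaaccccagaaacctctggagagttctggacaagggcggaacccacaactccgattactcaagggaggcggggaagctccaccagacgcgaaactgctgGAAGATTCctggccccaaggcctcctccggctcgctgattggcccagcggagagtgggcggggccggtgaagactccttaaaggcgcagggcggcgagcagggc
Hspb1, chr5:135887669-135887918, plus strand: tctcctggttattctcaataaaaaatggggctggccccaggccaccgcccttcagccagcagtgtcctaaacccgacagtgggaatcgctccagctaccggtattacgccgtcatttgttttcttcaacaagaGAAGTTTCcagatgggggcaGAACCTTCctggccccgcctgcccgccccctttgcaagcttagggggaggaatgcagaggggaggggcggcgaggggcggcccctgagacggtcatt
Counted from 1 at the 5′ end, the substitutions from Hspa1a to Hspa1b were C44T, T47C and T249G, which left 247 of 250 bases (98.8%) identical. In both, GAANNTTC began 104 bases upstream of the start. Hspb1 held the same motif at 117 and at 97 bases upstream.

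Hspe1 held the only match of 3 units among the 7 chaperone promoters searched, shown here because Hspe1 had lower values in the CD34- fraction. Its 28 bases at chr1:55088054-55088081, plus strand, have the array in capitals:
Hspe1: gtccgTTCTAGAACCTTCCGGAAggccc
It contains GAANNTTCNNGAA, beginning 84 bases upstream, and TTCNNGAANNTTC, beginning 89 bases upstream, which overlap each other. The window is also upstream of 1 of the annotated starts of the divergent gene Hspd1, and lies within the span of Hspd1 as measured from its other start. Of the 7 chaperone genes with an entry in the promoter table, Hsph1 held TTCNNGAA (33 or 54 bases upstream, by start), and Dnajb1 and Bag3 held no match of these forms in the window. The 2-unit forms read the same on both strands and the 3-unit forms are each other's reverse complement, so that both strands were searched. GAANNTTC was found in 6.69% and TTCNNGAA in 7.17% of 32851 RefSeq promoter windows of the same 250 bases, either of them in 12.8%, and a 3-unit form in 0.466%. Hspa8, Hsp90aa1 and Hsp90ab1 had no entry.

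The inducible Hsp70 genes were the chaperones with the largest difference between the fractions. Levels are given as CPM (counts relative to library size), scaled by library total and by the composition factor of the trimmed mean of M-values (TMM). Hspa1b was at 429.8, 714 and 898.5 CPM in CD34- CAFs of tumors 1, 2 and 3 and at 220, 327.5 and 233 CPM in the CD34+ CAFs. Hspa1a was at 240.2, 403 and 451 CPM in the CD34- libraries and at 118, 181 and 141 CPM in the CD34+ libraries. For both genes every CD34- library lay above every CD34+ library. The CD34- library of tumor 1 was the lowest of its group for both.

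Mean Hspa1a was 365 ± 110.4 CPM (SD, n = 3) in CD34- and 146 ± 31.9 CPM (SD, n = 3) in CD34+ CAFs, a 2.49-fold difference of the means. Mean Hspa1b was 681 ± 236 against 260.2 ± 58.7 CPM (SD, n = 3 each), 2.62-fold. On the log2 scale of limma-voom, where positive values are higher in CD34- CAFs, Hspa1a differed by 1.31 ± 0.27 (SE; 95% interval 0.69 to 1.93) and Hspa1b by 1.38 ± 0.29 (0.72 to 2.04). Neither passed the threshold of 0.05 in the fit without a tumor term, with limma adjusted p of 0.0917 and 0.0923. Both passed with the tumor as a block, at 1.30 ± 0.15 (adjusted p = 0.00164) for Hspa1a and 1.35 ± 0.19 (adjusted p = 0.00319) for Hspa1b. Within tumors 1, 2 and 3, the log2 ratio of CD34- to CD34+ was 1.03, 1.16 and 1.68 for Hspa1a and 0.97, 1.12 and 1.95 for Hspa1b. In RNA pooled from sorted cells, a smaller number of cells with a high level and a lower level in each cell cannot be told apart.

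As sequencing reads were assigned to near-identical genes, the copies were also taken as 1 gene. Of the 75-base windows of the Hspa1a transcript, 52.7% occurred in Hspa1b as well, and 55.8% of the Hspa1b windows occurred in Hspa1a, so how reads were split between them is uncertain. Summed, the pair reached 670, 1117 and 1349 CPM in the CD34- libraries and 338, 508 and 374 CPM in the CD34+ libraries. The summed difference was 1.36 ± 0.28 (limma adjusted p = 0.0928) without and 1.33 ± 0.17 (adjusted p = 0.00265) with the tumor as a block. Hspa1b held more counts than Hspa1a in each library: its ratio to Hspa1a was 1.79, 1.77 and 1.99 in the CD34- libraries and 1.87, 1.81 and 1.66 in the CD34+ libraries. These ratios overlapped between the fractions, and no difference beyond the spread of libraries was detected (exact permutation test, two-sided, p = 0.6, where the smallest possible is 0.1).

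For the whole group, 0 of the 10 genes passed limma-voom without a tumor term, where 0.121% of all 14855 genes tested did. At an unadjusted p under 0.05 the count was 2 of 10, Hspa1a and Hspa1b, beside 14.3% of all genes. With the tumor as a block, 3 of 10 passed, all higher in CD34- CAFs, beside 4.32% of all genes called in that direction (4.25% lower, 8.57% in either). edgeR and DESeq2 with the block also called 3 of 10, beside 3.87% and 12.6% of all genes in either direction. DESeq2 without a tumor term called Hspa1a (adjusted p = 0.000782) and Hspa1b (adjusted p = 0.000709), beside 2.44% of genes called higher and 5.45% called in either direction. The groups did not overlap for 2 of the 10, again Hspa1a and Hspa1b, both higher in CD34- CAFs. Of all genes, 10.4% had no overlap in that direction and 20.4% in either. As these copies share much of their sequence, they are not 2 independent genes in any of these counts. With the copies summed, limma-voom called 0 chaperones without a tumor term and 2 with the block, the pair and Hspb1. The pair was then the only member whose groups did not overlap. The median log2 fold change of the 10 was 0.01, against -0.03 over all genes, and 6 of the 10 lay within 0.1 of 0.

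**Figure D1:**
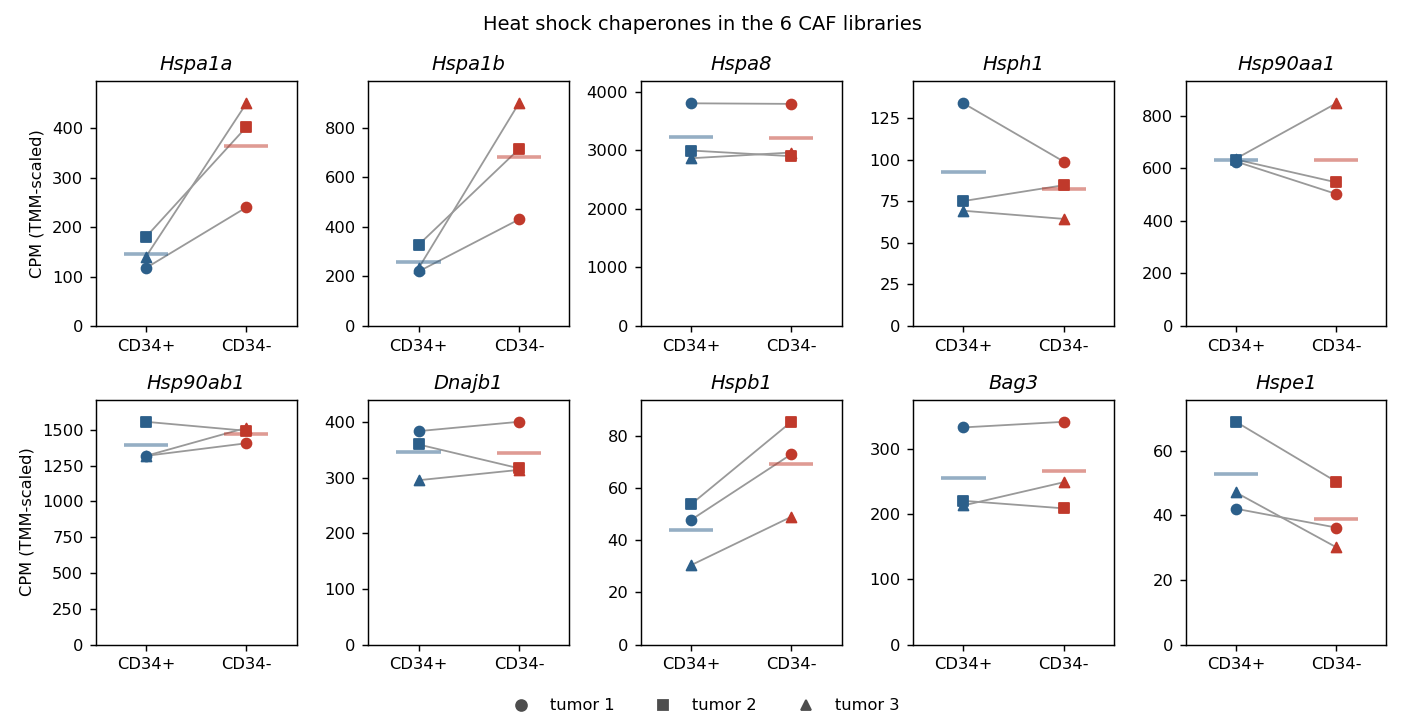
CPM (vertical axis from 0, TMM-scaled) of each of the 10 chaperone genes in CD34+ (blue) and CD34- (red) CAFs; symbols mark the tumor, grey lines join the fractions of 1 tumor, and short bars are group means (n = 3). Hspa1a, Hspa1b and Hspb1 slope up toward CD34- in all 3 tumors, Hspe1 slopes down in all 3, and the other 6 genes have lines of mixed direction.

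Hspb1 encodes Hsp25, the mouse form of HSP27, a small heat shock protein that also binds actin filaments. It was at 73.0, 85.4 and 49.0 CPM in the CD34- libraries and at 47.8, 53.7 and 30.4 CPM in the CD34+ libraries. The lowest CD34- library, that of tumor 3, lay below the CD34+ library of tumor 2, so the groups overlapped. Within each tumor the CD34- fraction was nonetheless higher, by a log2 ratio of 0.61, 0.67 and 0.69. The means were 69.1 ± 18.5 and 43.98 ± 12.1 CPM (SD, n = 3), and the log2 fold change was 0.64 ± 0.29 (95% interval -0.01 to 1.30), which did not pass without a tumor term (limma adjusted p = 0.358). With the tumor as a block it passed, at 0.66 ± 0.14 (adjusted p = 0.0214), but not when tumor 2 was left out of that fit (adjusted p = 0.212) nor with the tumor as a random effect (adjusted p = 0.105). Windows of 75 bases shared with the pseudogene Hsp25-ps1 made up 47.3% of its transcript, and its counts per library ran from 772 to 4591.

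Hspe1, the lid of the mitochondrial chaperonin, had lower values in the CD34- fraction of all 3 tumors. The CD34- libraries held 36.2, 50.5 and 30.1 CPM and the CD34+ libraries 42.1, 69.0 and 47.1 CPM, with overlapping groups. The log2 ratio within tumors 1, 2 and 3 was -0.22, -0.45 and -0.64. The log2 fold change was -0.48 ± 0.26 (95% interval -1.08 to 0.12; limma adjusted p = 0.447) and did not pass with the block either (-0.45, interval -0.79 to -0.10, adjusted p = 0.116). Its neighbour and partner Hspd1, the barrel subunit, was at 79.6, 122.5 and 85.7 CPM in the CD34- and at 120.2, 193 and 123 CPM in the CD34+ libraries. Hspd1 differed by -0.57 ± 0.25 (adjusted p = 0.342) and fell with the tumor as a block (-0.59 ± 0.12, adjusted p = 0.0202). The ratio of Hspe1 to Hspd1 lay between 0.352 and 0.455 in CD34- and between 0.350 and 0.384 in CD34+ CAFs. The genes overlap at their 5′ ends, with 13326 counts in all for Hspe1 and 34994 for Hspd1, and reads from that overlap cannot be told apart unless strand was used in counting, which is not given in the sources used here.

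The remaining Hsp70-system genes had nearly equal means in the fractions. Hspa8, the constitutive Hsp70 and the most abundant chaperone of the group, was at 3796, 2902 and 2965 CPM in the CD34- libraries and at 3806, 2999 and 2867 CPM in the CD34+ libraries. In each tumor the fractions were closer to each other than tumor 1 was to the other tumors. The log2 fold change was -0.02 ± 0.22 with a 95% interval of -0.52 to 0.49, and with the tumor as a block the interval narrowed to -0.28 to 0.28, a fold of 0.824 to 1.21 (limma adjusted p = 0.979 without the block). A difference of the size seen for Hspa1a and Hspa1b lay outside these intervals. Hspa8 shared 68.6% of its 75-base windows with other genes, most of them with the pseudogene Gm15459, and 3 small nucleolar RNAs within it (Snord14c, Snord14d, Snord14e) held 496, 394 and 1204 counts beside its 851016.

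Hsph1, the Hsp110 exchange factor, was at 98.9, 84.7 and 64.5 CPM in the CD34- and at 134, 75.2 and 69.4 CPM in the CD34+ libraries. The log2 fold change was -0.09 ± 0.28 (95% interval -0.73 to 0.54; limma adjusted p = 0.906), and the CD34+ library of tumor 1 was the highest. Dnajb1, the J-domain protein of the heat shock response, was at 401, 317 and 314.5 CPM in the CD34- and at 384, 360.3 and 296 CPM in the CD34+ libraries. Its log2 fold change was -0.02 ± 0.19 (-0.45 to 0.42; adjusted p = 0.979). Bag3, which links Hsp70 to selective autophagy, was at 341, 209 and 249 CPM in the CD34- and at 333, 220.3 and 213 CPM in the CD34+ libraries. Its log2 fold change was 0.04 ± 0.25 (-0.54 to 0.62; adjusted p = 0.961). For these 3 genes the groups overlapped, and the sign of the difference varied among tumors. Dnajb1, Bag3 and Hsph1 shared no 75-base window with another gene.

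The Hsp90 genes did not pass either. Hsp90ab1, the constitutive cytosolic form, was at 1407, 1494 and 1515 CPM in the CD34- and at 1319, 1557 and 1319 CPM in the CD34+ libraries. Its log2 fold change was 0.09 ± 0.18 (95% interval -0.32 to 0.50; limma adjusted p = 0.855). Hsp90aa1, the stress-inducible form, was at 502, 547 and 847.5 CPM in the CD34- libraries, while its CD34+ libraries were at 626, 634 and 637 CPM. The CD34+ libraries were thus nearly alike, and the CD34- library of tumor 3 stood above the other 5. The log2 fold change was -0.03 ± 0.23 (-0.55 to 0.49; adjusted p = 0.966). Within tumors 1 and 2 the log2 ratio was -0.32 and -0.21, and in tumor 3 it was 0.41. Leaving libraries or tumors out gave values between -0.28 and 0.10, none of which passed. Of its 75-base windows, 53.1% were shared with other genes, mostly the pseudogene Gm12346.

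**Figure D2:**
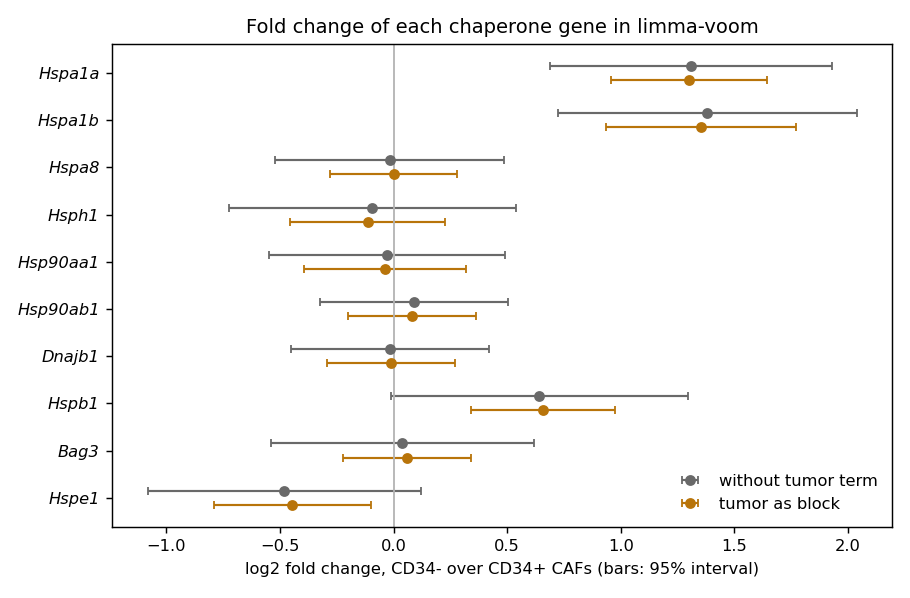
log2 fold change of CD34- over CD34+ CAFs for each chaperone gene (horizontal axis), with 95% intervals, in limma-voom without a tumor term (grey) and with the tumor as a block (orange); n = 3 libraries per fraction. The intervals of Hspa1a and Hspa1b lie above 0 in both fits and that of Hspb1 in the blocked fit alone, and the interval of Hspe1 lies below 0 in the blocked fit alone, where its adjusted p was 0.116.

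The inducible pair was then set against each of the other 8 chaperones within the same library, a comparison chosen after the values were seen. Length-scaled levels were used, and the pair was summed. The ratio of the pair to Hspa8 was 0.132, 0.289 and 0.341 in the CD34- and 0.0665, 0.127 and 0.0978 in the CD34+ libraries. The ratio to Dnajb1 was 1.35, 2.84 and 3.46 against 0.709, 1.14 and 1.02. For both the lowest CD34- library, tumor 1, lay just above the highest CD34+ library. The ratio was higher in the CD34- fraction of all 3 tumors for 8 of 8 denominators, by 0.67 (Hspb1) to 1.76 (Hspe1) on the log2 scale. The groups did not overlap for 6 of the 8. For those 6 the exact permutation test (two-sided) gave p = 0.1, the smallest that 3 against 3 libraries allow, and 0.133 after Benjamini-Hochberg adjustment over the 8. With Bag3 the exact p was 0.2 and with Hspb1 0.3. All 8 ratios share the numerator and are not independent. The pair was picked for its difference in these libraries, and 6 of the 8 denominators had a log2 fold change within 0.1 of 0. The ratios therefore mostly repeat the difference of the pair and add no separate evidence for it. The permutation also did not use the pairing by tumor.

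Per kilobase of exon, the chaperones spanned a wide range of levels. Hspa8 was highest at a mean of 1532 CPM per kilobase over the 6 libraries (range 1363 to 1809), followed by Hsp90ab1 at 572.5 (526 to 621) and Hsp90aa1 at 222 (176 to 297). Hspa1b at 167, Dnajb1 at 153, Bag3 at 100.5, Hspa1a at 91.3, Hspb1 at 62.6 and Hspe1 at 59.7 came next, and Hsph1 was lowest at 25.2 (18.5 to 38.5). Neighbours in this order had separate ranges only between Hspa8 and Hsp90ab1, between Hsp90ab1 and Hsp90aa1, and between Hspe1 and Hsph1. The constitutive Hspa8 thus stood above the inducible copies in both fractions. Hspa1b, at 242 ± 84.0 CPM per kilobase in CD34- and 92.6 ± 20.9 in CD34+ CAFs (SD, n = 3), had a higher mean than Dnajb1 in CD34- and a lower one in CD34+ CAFs (152 ± 21.7 and 153 ± 20.2 for Dnajb1). How reads were split between Hspa1a and Hspa1b is uncertain, and so are their separate places in this order. Summed, the pair was at 0.709, 1.14 and 1.02 of Dnajb1 in the CD34+ libraries. The windows that Hspa8 and Hsp90aa1 share with other genes also limit their levels.

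**Figure D3:**
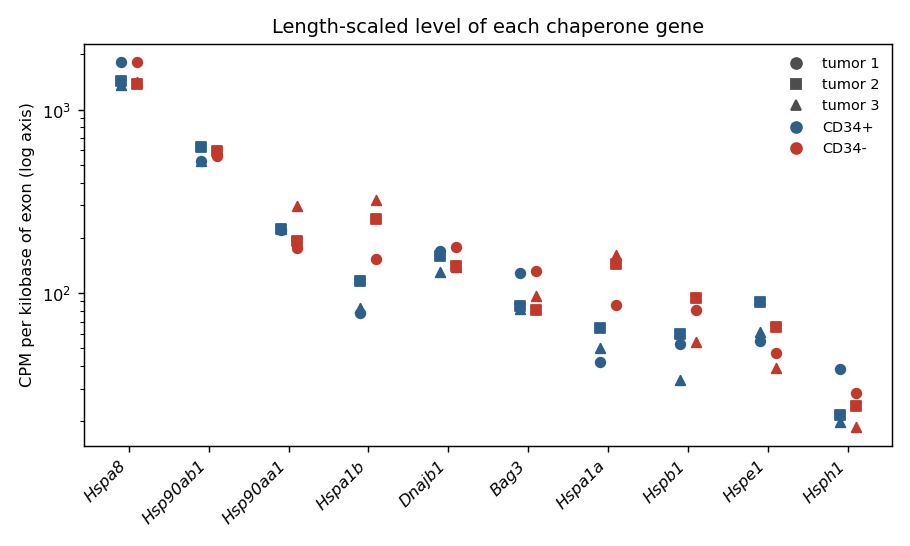
CPM per kilobase of exon (vertical log axis) of the 10 chaperone genes, ordered by their mean over 6 libraries; blue points are CD34+ and red points CD34- libraries, and symbols mark the tumor. Hspa8 lies at 1363 to 1809 and Hsph1 at 18.5 to 38.5, and the fractions separate for Hspa1a and Hspa1b.

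The chaperones also differed among tumors, and in another pattern than between fractions. Hspa8, Hsph1, Dnajb1 and Bag3 were highest in tumor 1 in both fractions, which held for 18.7% of all genes tested. Their level in tumor 1 over the mean of the other tumors was 1.49-fold in CD34- and 1.53-fold in CD34+ CAFs for Bag3, 1.33 and 1.85 for Hsph1, 1.29 and 1.30 for Hspa8 and 1.27 and 1.17 for Dnajb1. Hspa1a and Hspa1b ran the other way, at 0.563 and 0.533 of the other tumors in CD34- CAFs and 0.732 and 0.785 in CD34+ CAFs. The tumor means of Hspa8 spanned 0.38 on the log2 scale, against a mean absolute difference of 0.03 between the fractions of a tumor. For Hspa1a the same values were 0.68 between tumors and 1.29 between fractions. These are descriptions of 3 tumors, without a test.

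Immediate early genes such as Fos, Jun and Egr1, transcription factor genes that respond to stimuli within minutes and are known to be induced, like chaperones, during tissue digestion, were set beside this pattern. The summed CPM of 16 such genes was 38150, 24570 and 27270 in the CD34- libraries and 33580, 21780 and 26680 in the CD34+ libraries. Tumor 1 was highest in both fractions, as it was for Bag3, Hspa8, Dnajb1 and Hsph1 and was not for Hspa1a and Hspa1b. Within each tumor the sum was higher in the CD34- fraction, as Hspa1a and Hspa1b were. Of the 16 genes, 8 were higher and 3 lower in the CD34- fraction of all 3 tumors. In all, 12 of the 16 genes were highest in tumor 1 in both fractions. Between the fractions, 0 of the 16 passed without a tumor term (0.121% of all genes did), and 3 rose and 1 fell with the tumor as a block (4.32% and 4.25% of all genes). Their part in the chaperone differences was not tested.

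Of 90 further chaperone and co-chaperone genes in 9 lists, 86 passed the filter. None of the 86 passed limma-voom without a tumor term (9 did at an unadjusted p under 0.05, where 14.3% of all genes did, and 0 with DESeq2 or edgeR without that term). With the tumor as a block 1 rose and 3 fell, beside 8.57% of all genes called in that fit, a share above that of 4 in 86. The gene that rose was Cryab, the small heat shock protein alpha B crystallin, which was at 64.3, 78.9 and 60.7 CPM in the CD34- and at 52.6, 47.1 and 21.9 CPM in the CD34+ libraries. The Cryab groups did not overlap, and the log2 fold change was 0.84 ± 0.31 (adjusted p = 0.278) without and 0.81 ± 0.20 (adjusted p = 0.0394) with the block. The genes that fell were Hspd1, given above, the J-domain gene Dnajb4 (-0.57 ± 0.12, adjusted p = 0.0191) and Cct4, a subunit of the cytosolic chaperonin TRiC that folds actin and tubulin (-0.47 ± 0.12, adjusted p = 0.0463). Without the block these were -0.61 (adjusted p = 0.431) for Dnajb4 and -0.46 (adjusted p = 0.288) for Cct4. In the blocked fit without tumor 2, Hspd1 (adjusted p = 0.179), Dnajb4 (0.120) and Cct4 (0.282) did not pass, without tumor 1 Dnajb4 (0.0523) and Cct4 (0.0929) did not, and edgeR with the block called none of the 86. With the tumor as a random effect, an estimated correlation, 0 of the 86 passed, and the adjusted p was 0.0956 for Hspd1, 0.153 for Dnajb4, 0.0806 for Cryab and 0.0810 for Cct4.

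Among small heat shock proteins, 5 of 8 were tested, with a median log2 fold change of 0.84, which is the value of Cryab. Hspb2, Hspb6 and Hspb7 had low levels, at most 4.05 CPM in any library, so this median does not describe a rise of the family. The most abundant of the 5, Hspb8, which forms a complex with Bag3, was at -0.11 (adjusted p = 0.778). All 8 TRiC subunits had a log2 fold change below 0, from -0.52 to -0.24, with a median of -0.36, against -0.03 over all genes tested. The most abundant subunit, Cct8, was at -0.24 (adjusted p = 0.705). The 10 mitochondrial chaperones had a median of -0.05, and Hspa9, the mitochondrial Hsp70 and the most abundant of them, was at 0.0045 (adjusted p = 0.995).

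The 12 chaperones of the endoplasmic reticulum had a median of -0.02, and their most abundant gene, Hspa5 (BiP), was at -0.26 (limma adjusted p = 0.606). The other 10 Hsp70 and Hsp110 genes had a median of 0.09, with the most abundant, Hspa4, at -0.12 (adjusted p = 0.822). The medians were -0.13 for 16 J-domain proteins, led in level by Dnaja1 at -0.24 (adjusted p = 0.754), -0.17 for 15 HSP90 co-chaperones, led by St13 at -0.32 (adjusted p = 0.431), and -0.02 for 5 BAG family genes, led by Bag1 at -0.32 (adjusted p = 0.559). Of the heat shock factor list, 5 of 6 genes were tested. Hsf1, the factor of the classical response, was at 24.96, 24.6 and 32.0 CPM in the CD34- and at 18.0, 25.3 and 23.0 CPM in the CD34+ libraries (log2 fold change 0.22 ± 0.21, adjusted p = 0.684). The most abundant gene of that list, the factor-binding protein gene Hsbp1, was at -0.04 (adjusted p = 0.942). Hsf4 had the highest log2 fold change of the 86 related genes. It was at 7.727, 7.307 and 8.087 CPM in the CD34- and at 3.899, 2.645 and 5.751 CPM in the CD34+ libraries. Hsf2 ran the other way, at 13.41, 11.54 and 6.107 against 14.24, 16.2 and 25.37 CPM. For both genes the groups did not overlap. Neither passed, with limma adjusted p of 0.1918 (Hsf4) and 0.3372 (Hsf2) without and 0.1222 and 0.187 with the block.

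**Figure D4:**
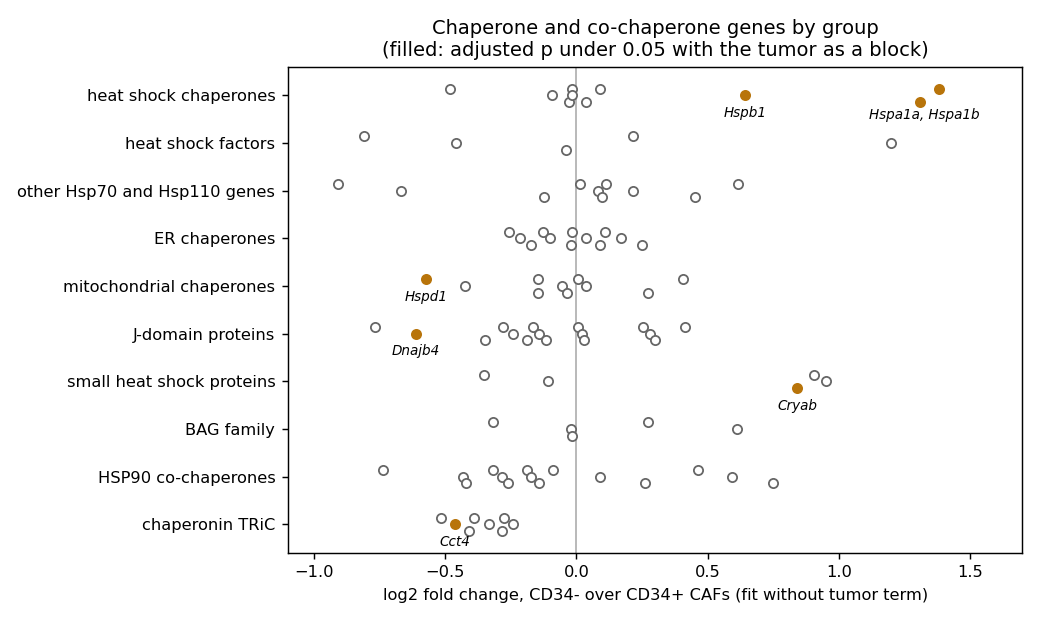
log2 fold change of CD34- over CD34+ CAFs (horizontal axis, fit without a tumor term) of each tested gene in the 10 heat shock chaperones (top row) and in 9 lists of related genes; filled points had an adjusted p under 0.05 with the tumor as a block, in which fit 3 of the 10, 4 of the 86 related genes and 8.57% of all genes passed. Hspa1a and Hspa1b lie farthest to the right, and all 8 TRiC points lie left of 0.

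The genes whose level over the 6 libraries was most like that of the summed pair were Sh3rf1 (Pearson r = 0.988), Tor1aip2 (0.988), Grk2 (0.986), Adarb1 (0.986) and Vps53 (0.985), among the 8942 genes whose log2 CPM averaged 3 or more. With 6 libraries in 2 groups these values describe the libraries only. Among the chaperones, r with the pair was 0.70 for Hsp90ab1, 0.57 for Hspb1 and 0.25 for Hsp90aa1, and between -0.46 and -0.25 for Hspa8, Hsph1, Dnajb1, Bag3 and Hspe1.

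Library totals ranged from 16238059 to 86609267 counts, and the 10 chaperones took 0.610% to 0.760% of them. The CD34- library of tumor 3 stood apart, with counts for 14314 genes against 16253 to 19220 in the others, and without it Hspa1a differed by 1.14 and Hspa1b by 1.16 on the log2 scale (limma adjusted p = 0.226 and 0.225). Cd34 itself followed the sort, at 79.2, 42.0 and 101.8 CPM in the CD34- and 677.5, 562.5 and 1605 CPM in the CD34+ libraries (limma adjusted p = 0.0414), and Pdgfra, the reporter gene, did not differ beyond the spread (log2 fold change -0.16, adjusted p = 0.785). Summed CPM of 8 fibroblast markers was 68280 to 94420 in CD34- and 77420 to 94020 in CD34+ CAFs, most of it from Col1a1, Col1a2 and Col3a1. The sum hides opposite differences. Pdgfrb, Fbln1, Col1a1 and Col1a2 were higher and Dcn, Lum, Col3a1 and Pdgfra lower in the CD34- fraction of all 3 tumors. With the tumor as a block, 2 of the 8 rose (Pdgfrb, Fbln1) and 2 fell (Dcn, Lum), beside 8.57% of all genes called. Summed epithelial markers were at 171, 151 and 59.0 CPM in CD34- and 147, 103 and 21.1 CPM in CD34+ CAFs, and 6 of the 8 were higher in the CD34- fraction of all 3 tumors, as were Hspa1a, Hspa1b and Hspb1. The log2 ratio of the epithelial sum within tumors 1, 2 and 3 was 0.22, 0.55 and 1.48, the same order as for Hspa1a and Hspa1b. Among the CD34- libraries the order was the opposite. There the epithelial sum was highest in tumor 1 and lowest in tumor 3, and Hspa1a and Hspa1b were lowest in tumor 1 and highest in tumor 3. Of 6 pericyte markers, summed at 211 to 236 against 86.8 to 188 CPM, Rgs5, Cspg4, Mcam and Notch3 were also higher in the CD34- fraction of all 3 tumors (2.68-fold to 7.53-fold in the means), whereas Kcnj8 and Abcc9 were lower in all 3. The 7.53-fold value was that of Rgs5, a gene of low level, at 4.08, 3.72 and 10.7 CPM in the CD34- and 1.18, 1.03 and 0.247 CPM in the CD34+ libraries. The pericyte sum had log2 ratios of 0.16, 1.44 and 0.98. Of 6 endothelial markers, summed at 10.4 to 30.6 against 55.2 to 122.5 CPM, Tek made up most of the CD34+ sum, and without it the sums were 17.2, 7.17 and 4.98 in CD34- and 27.8, 6.40 and 6.88 CPM in CD34+ CAFs and overlapped. Tek and Kdr were lower and Cdh5 higher in the CD34- fraction of all 3 tumors. Mean Kdr was 3.51 against 7.17 CPM, and mean Cdh5 was 1.97 against 0.751 CPM. The sum of 8 immune genes was at 11 to 11.9 against 6.31 to 12.2 CPM, with the pan-leukocyte marker Ptprc at 0 in 1 library and under 0.5 CPM in the others. Of the 8, 4 (Lyz2, Adgre1, Tyrobp and Cd79a) were higher and 1 (Cd3e) lower in the CD34- fraction of all 3 tumors. Lyz2 was at 6.73, 6.02 and 8.83 CPM in the CD34- and at 1.80, 4.48 and 2.58 CPM in the CD34+ libraries. Cd3e reached 1.77 CPM in the CD34- and 5.89 CPM in the CD34+ libraries. The part of these cell types in the chaperone differences was not tested.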

How the data were processed

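RNA was extracted from snap-frozen sorted GFP+ CAFs, libraries were made with a TruSeq RNA v2 protocol and sequenced on a NextSeq 500. The authors aligned reads to GRCm38 and used featureCounts to count them for each NCBI gene; the deposited values are raw counts per gene and library, with no normalization. Strand use and the treatment of reads with several matches are not given in the sources used here. Groups and tumor numbers came from the sample titles. The 10 members and the related lists were chosen with earlier results of these data known.

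Following the study's methods, except that genes without a symbol were kept (removing them was an alternative), genes were filtered with filterByExpr (minimum count 10; 14855 of 27179 remained), scaled by TMM and fitted with limma-voom, with Benjamini-Hochberg adjustment over all genes and a two-sided threshold of 0.05. The tumor pairs the libraries, since both fractions came from the same tumor; deviations from the group means correlated at 0.373, 0.350 and 0.219 for tumors 1, 2 and 3. The study's methods give no tumor term. A blocked fit (tumor as a factor) is therefore given beside the main one where it changes a call. The main fit called 3 genes higher in CD34- CAFs, and the blocked fit called 642. The paper's list of genes higher in CD34- CAFs must be longer than 3, since its overlap with another list already is. The calls of the main fit are thus not the study's list, and which settings gave that list was not tested. Ratios were tested with exact permutation over the 6 libraries. Named genes are the 10 members, the related genes past the threshold in either fit (at most 4 per list) and the most abundant gene of each list. Named too are the summed pair, the 5 genes most alike to it, and Cd34 and Pdgfra. Hsf1, Hsf2, Hsf4, Hspb2, Hspb6, Hspb7, Fos, Jun, Egr1, single cell type markers and genes overlapping a member were added after their values were seen. The log2 ratio within a tumor subtracts the voom values of its libraries. Alternatives were library totals or DESeq2 size factors for TMM, 2 other low-count filters, genes with a symbol only, edgeR quasi-likelihood, DESeq2, limma-trend, quality weights, the block in 3 tools, the tumor as a random effect, the summed copies, and each library or tumor left out. Versions were DESeq2 1.42.0, limma 3.58.1 and edgeR 4.0.16 under R 4.3.3. Positions and promoters are from RefSeq GRCm38.p6, matched by NCBI identifier or symbol; 7 of 10 members had a promoter entry. Shared 75-base windows were counted over the transcripts of the reference annotation. Library depth was 16238059 to 86609267 counts, with 680 or more counts for each member in each library.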

Additional observations from a re-analysis of the deposited data

How the results depend on the processing

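Without a tumor term, limma-voom called 18 genes, 0 of the 10 chaperones and 0 related genes; library totals in place of TMM called 32 genes, edgeR 9, sample quality weights 161 and DESeq2 698, with 2 of the 10 chaperones called by DESeq2. With the tumor as a replicate block, the called genes numbered 1273 in limma-voom, 575 in edgeR and 1733 in DESeq2, the called chaperones 3 in each, and the called related genes 4 in limma-voom and 5 in DESeq2. The tumor as a random effect called 703 genes, 2 chaperones (Hspa1a and Hspa1b) and 0 related genes. The block with the copies summed, chosen after seeing the data, called 1271 genes, 2 chaperones (the pair and Hspb1) and 4 related genes. Leaving out 1 library or tumor without the block gave 0 to 86 genes, 0 to 2 chaperones, 0 related genes and a median log2 fold change of the 10 from -0.073 to 0.15; only without tumor 1 were Hspa1a and Hspa1b called, both at an adjusted p of 0.0405. Leaving out a tumor with the block gave 1134, 851 and 2019 genes without tumors 1, 2 and 3, 2 to 3 chaperones, 1 to 10 related genes and a median from -0.04 to 0.09, and Hspa1a (1.08 to 1.41) and Hspa1b (1.03 to 1.54) were called in all 3. Their log2 fold change was above 0 in every setting run, from 1.12 to 1.56 for Hspa1a and from 1.08 to 1.66 for Hspa1b when libraries were left out without the block.

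Genes near 0 changed sign. Without a filter on low counts, Hspa8 was at 0.0068 and Dnajb1 at 0.0035, edgeR gave 1e-04 for Hsp90aa1, and quality weights gave 0.0021 for Dnajb1 and -0.04 for Bag3. Leaving out a library or tumor without the block gave -0.14 to 0.12 for Hspa8, -0.27 to 0.17 for Hsph1, -0.28 to 0.10 for Hsp90aa1, -0.13 to 0.075 for Dnajb1 and -0.15 to 0.26 for Bag3; with the block the ranges were -0.04 to 0.012 (0.0036 without tumor 1), -0.29 to 0.064, -0.28 to 0.10 (0.036 without tumor 2), -0.074 to 0.065 and -0.035 to 0.12. None of these passed the threshold, and the cause was not tested. The blocked fit changed the call of Hspa1a, Hspa1b, Hspb1, Hspd1, Dnajb4, Cryab and Cct4 and of no other named chaperone gene. No fit at matched depth was run.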
